A study of Sus scrofa with 9 samples.

Results

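Hatched blastocysts (HB) of the pig produced by chromatin transfer (CT HB) were compared with hatched blastocysts recovered from the reproductive tract (IVV HB) on 6 of the 9 two-colour arrays of the series, 3 arrays a group, chosen by the group that the sample titles give. The other 3 arrays hold parthenogenetic hatched blastocysts (PA HB), whose values are set beside those of CT HB where they help to place a gene. The quantity throughout is the log2 ratio of an embryo pool over a common reference, averaged over the probes of a gene, so that 0 means a signal equal to that of the reference, and 1 unit is a 2-fold difference. Ratios do not compare the abundance of different genes, nor does a ratio near 0 show that a transcript is absent.

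CT HB were reconstructed by chromatin transfer, a way of cloning by which an oocyte without its own chromosomes receives those of a somatic cell after they were treated in a dish. The donor cell type and its number of lines are not given in the sources used here. The reconstructed embryos were activated with ionomycin and then 6-dimethylaminopurine, the agents also used on the oocytes that gave PA HB, and both kinds were cultured in a medium based on NCSU-23. IVV HB came from inseminated gilts, with a label of 5.5 days after insemination. The labels of CT HB and PA HB read 7 with hours as the unit, whereas the methods describe culture for several days, so the age of those embryos is uncertain. Somatic nucleus, oocyte source, artificial activation, culture and age thus changed together between CT HB and IVV HB and cannot be told apart. On every array the Cy5 channel carried RNA of 1 pool of 5 embryos, and the Cy3 channel that of the reference, a pool of oocytes and embryos up to day 11. The dyes were not swapped. The methods call the pools biological replicates without saying whether they came from separate collections, so that the p-values cover no more than the scatter of these pools, which may be technical.

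At the hatched stage the embryo consists of an outer trophectoderm, which will form the placenta, and an inner cell mass that gives rise to epiblast and hypoblast. After nuclear transfer the oocyte must silence the programme of the donor cell and start the embryonic one, and cloned embryos are known for incomplete reprogramming and for frequent loss around implantation. Embryos grown in a dish also lack the oviductal and uterine fluid that the embryo in the mother meets.

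The arrays limited precision by their number, 3 a group. Correlation over all 23971 probes was 0.839 to 0.887 between CT HB arrays and 0.785 to 0.869 between IVV HB arrays, and 0.737 to 0.842 across the groups, so that the ranges overlapped. The median SD of a gene was 0.20 in both groups. A set of 608 probes followed 1 common profile over the arrays, with medians of 0.42, 1.17 and 0.08 in CT HB and of 0.37, 2.26 and 1.06 in IVV HB. Of the genes called below, 0 carry such a probe.

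In comparison with IVV HB, 50 of 7518 genes changed in CT HB (0.665%), meaning that they were at least 2-fold apart with an adjusted p no higher than 0.05. The changes ran mostly upward, with 43 genes higher (0.572%) and 7 lower (0.0931%) in CT HB, or 86% of the calls higher, against 76.2% after quantile and 73.8% after scale normalization between arrays and 70.7% with array weights. Over all genes the median difference of CT HB minus IVV HB was -0.01, and 47.6% lay above 0. Of the 50, 5 changed at least 4-fold, 13 between 3-fold and 4-fold and 32 by less than 3-fold, with a median of 2.76-fold. On the reference scale, 24 of the 43 higher genes had a mean above the reference in CT HB and below it in IVV HB (11% of all genes). Another 14 were above it in both and 5 were below it in both. Of the 7 lower genes, 5 were below the reference in CT HB and above it in IVV HB (11.9% of all genes). Genes called for a difference of at least 2-fold cross the reference more readily than others, so these counts are a description only. For all 50 genes the 3 CT HB arrays lay beyond the 3 IVV HB arrays, which was also true of 1440 genes (19.2%) whether changed or not. Without the fold threshold 61 genes passed, 50 higher and 11 lower, and 827 had an unadjusted p of at most 0.05.

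**Figure D1:**
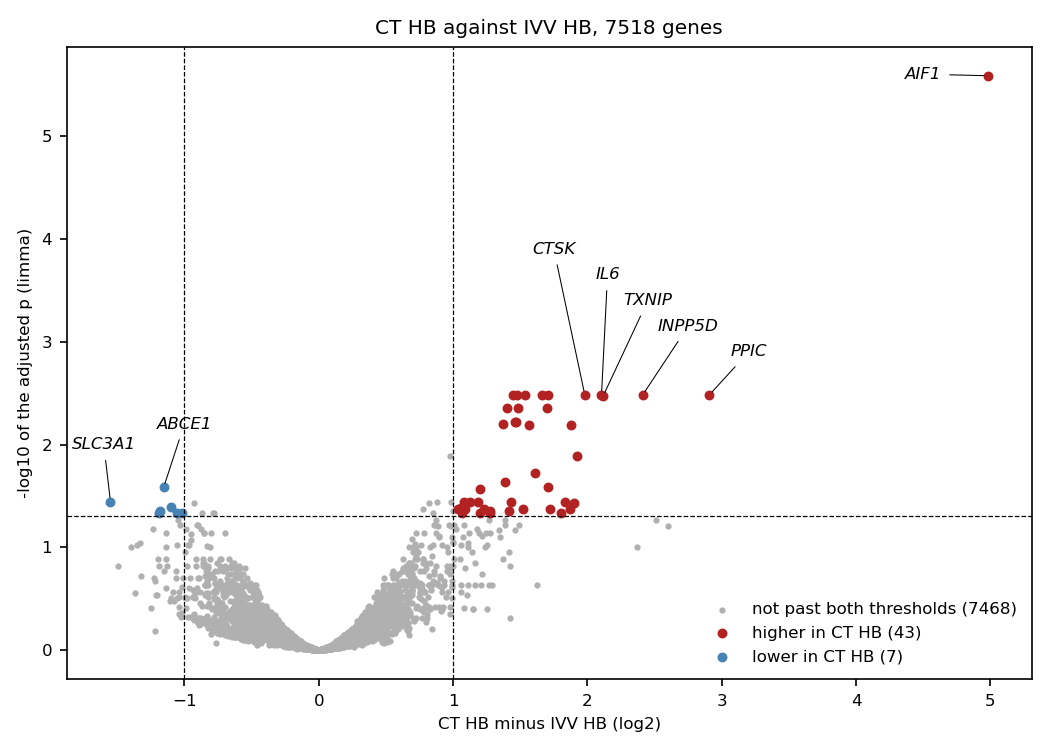
Difference between CT HB and IVV HB (x axis, log2 ratio of CT HB minus IVV HB) against the -log10 of the adjusted p from limma (y axis), 1 point per gene for 7518 genes, with the thresholds of 2-fold and 0.05 as dashed lines. The 43 higher genes (red) outnumber the 7 lower ones (blue), and *AIF1* stands apart from all others at 4.98.

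Measured markers of the blastocyst lineages held no gene that passed. In parentheses beside each such count stand the median difference of the list and the number of its genes with an unadjusted p of at most 0.05 by limma, which 11.0% of all genes had. The lists here and below were chosen with earlier results of these data known. Of 23 trophectoderm genes 0 changed (median 0.02, unadjusted p passed by 4), of 8 epiblast genes 0 (median -0.16, unadjusted p passed by 2), and of 10 hypoblast genes 0 (median 0.10, unadjusted p passed by 3). These lists name 33, 26 and 23 genes, and the rest were not measured. The pluripotency gene *NANOG* had no named probe. *POU5F1*, the pluripotency factor OCT4, had log2 ratios of 0.55, 0.45 and 0.38 in CT HB, against 0.80, 1.17 and 0.88 in IVV HB, a difference of -0.49 (SE 0.30, adjusted p = 0.62) by limma. The epiblast list ran from -0.58 to 0.84. At its upper end *DPPA5*, a marker of pluripotent cells, was at -3.92, -3.81 and -3.19 in CT HB, against -4.47, -4.16 and -4.80 in IVV HB, a difference of 0.84 (SE 0.28, adjusted p = 0.26) by limma. *ZFP42*, a zinc finger gene of pluripotent cells, stood at -0.58 (SE 0.21, adjusted p = 0.29), and *GATA6*, a transcription factor of the hypoblast, at 0.51 (SE 0.26, adjusted p = 0.52), both by limma. The trophectoderm list ran from -0.65 to 0.88, with 13 of 23 genes above 0. Its members with the smallest p were the protease *LGMN* at 0.88 (SE 0.24, adjusted p = 0.15), the steroid sulfatase *STS* at -0.65 (SE 0.20, adjusted p = 0.21) and *AMOT*, a regulator of the Hippo pathway, at 0.47 (SE 0.19, adjusted p = 0.38) by limma. The trophectoderm factors *GATA2* and *TEAD4* stood at -0.15 and -0.44 (limma, adjusted p = 0.92 and 0.43). In pools of whole embryos, fewer cells of a type and less RNA per cell cannot be told apart.

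Markers of cells other than the embryo's were examined as well. Of 12 fibroblast genes 0 passed both thresholds (median 0.01, unadjusted p passed by 3), with differences from -0.93 to 1.16. *CAV1*, the main protein of caveolae, passed the adjusted p but not the fold threshold, and was lower, at 0.21, 0.09 and 0.22 in CT HB, against 1.16, 1.12 and 1.03 in IVV HB, a difference of -0.93 (SE 0.17, adjusted p = 0.037) by limma. At the other end *TAGLN*, an actin-binding protein of smooth muscle and fibroblasts, was at 1.14, 0.40 and 1.96 in CT HB, 1.99, 2.69 and 1.81 in PA HB and -0.44, 0.49 and -0.04 in IVV HB, with CT HB and IVV HB overlapping and a difference of 1.16 (SE 0.38, adjusted p = 0.23) by limma. *VIM*, the intermediate filament vimentin, lay far below the reference in both groups, at -4.19, -4.02 and -3.69 in CT HB, against -4.83, -3.89 and -3.79 in IVV HB. The collagen *COL1A2* lay at -1.03, -0.34 and -0.57 in CT HB, against -0.90, -0.85 and -1.0 in IVV HB, with ranges that overlapped. Transcripts of the oocyte were also far below the reference, with array medians over 20 genes of -2.81 to -2.44 in CT HB and of -2.87 to -2.13 in IVV HB. Of these 20 genes 0 changed (median -0.15, unadjusted p passed by 1). Of 11 genes of cumulus and granulosa cells 0 changed (median 0.05, unadjusted p passed by 0), of 7 genes of the endometrium 0 (median 0.11, unadjusted p passed by 1) and of 4 genes of erythroid cells 0 (median 0.28, unadjusted p passed by 0).

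*AIF1*, which encodes a calcium-binding, actin-bundling protein best known from macrophages and microglia, differed most. Its log2 ratios were 4.93, 5.35 and 5.24 in CT HB, 4.25, 5.18 and 4.32 in PA HB and 0.15, 0.45 and -0.03 in IVV HB. The CT HB values were all high, 2 PA HB values lay below them and 1 among them, and the IVV HB values were close to the reference. The difference between CT HB and IVV HB was 4.98 (SE 0.25, 31.6-fold, limma, adjusted p = 2.6e-06), and that between CT HB and PA HB was 0.59 (SE 0.25, adjusted p = 0.15). *INPP5D*, the inositol phosphatase SHIP1 that restrains signalling in blood cells, had ratios of 1.56, 2.23 and 2.28 in CT HB, 1.93, 2.16 and 1.13 in PA HB and -0.33, -0.78 and -0.06 in IVV HB, a difference from IVV HB of 2.41 (SE 0.30, 5.32-fold, limma, adjusted p = 0.0033). Its PA HB arrays fell partly within the range of CT HB, and CT HB minus PA HB was 0.28 (limma, adjusted p = 0.58). Both genes are on a list of 13 measured leukocyte markers, of which 2 rose and 0 fell (median 0.11, unadjusted p passed by 3). Of all genes 0.572% rose. The other 11 stood between -0.70 and 0.73. *PTPRC*, the pan-leukocyte antigen CD45, was at 0.34, -0.16 and 0.33 in CT HB, against 0.11, 0.26 and 0.25 in IVV HB. *CSF1R*, the receptor that macrophages depend on, was at -0.55, 0.22 and 0.47 in CT HB, against -0.28, 0.48 and 0.14 in IVV HB, and the T cell gene *CD3E* at -0.28, -0.21 and -0.01 in CT HB, against -0.40, 0.12 and -0.36 in IVV HB. These defining markers lay near the reference in both groups, with ranges that overlapped. *CD86*, a costimulatory ligand, stood at 0.73 (SE 0.19, adjusted p = 0.12) by limma. Of its 5 probes 1 passed both thresholds in the fit by probe, at 1.74 (limma, adjusted p = 0.022), and the others lay between -0.60 and 0.94.

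*PPIC*, *DPM3*, *TRAPPC5* and *KDELR1*, which encode proteins of the endoplasmic reticulum and of vesicle transport, were higher in CT HB. They were placed side by side here after their values were seen, and the first 3 belong to no list. *PPIC*, a cyclophilin that helps proteins to fold in the endoplasmic reticulum, had ratios of 2.22, 1.04 and 2.17 in CT HB, 0.54, -0.08 and -0.59 in PA HB and -1.12, -1.23 and -0.94 in IVV HB. It was above the reference on each CT HB array and below it on each IVV HB array, a difference of 2.91 (SE 0.33, 7.5-fold, limma, adjusted p = 0.0033). The PA HB values lay between those groups, and CT HB exceeded them by 1.85 (SE 0.33, adjusted p = 0.0067). *DPM3*, a subunit of dolichol-phosphate mannose synthase, which supplies mannose for glycosylation, differed by 1.56 (SE 0.22, 2.95-fold, limma, adjusted p = 0.0064), with 0.89, 1.56 and 0.99 in CT HB, against -0.58, -0.53 and -0.14 in IVV HB. *TRAPPC5*, part of the complex that tethers transport vesicles, was at 0.92, 1.75 and 1.08 in CT HB, against -0.73, -0.72 and 0.09 in IVV HB, a difference of 1.71 (SE 0.29, 3.27-fold, limma, adjusted p = 0.026). *KDELR1*, the receptor that returns resident proteins to the endoplasmic reticulum, was at 0.57, 1.17 and 0.86 in CT HB, -0.15, -0.46 and -0.22 in PA HB and -0.45, -0.01 and -0.11 in IVV HB. CT HB arrays were the highest of the 3 groups there, at 1.06 (SE 0.20, 2.08-fold, limma, adjusted p = 0.041) above IVV HB. The list of 26 genes of endoplasmic reticulum stress held 1 changed gene, *KDELR1* (list median 0.10, unadjusted p passed by 4, with 0.572% of all genes rising). Its chaperone and growth factor members *DNAJB11* and *MANF* stood at -0.69 and -0.82 without passing (limma, adjusted p = 0.29 and 0.3), and the transcription factor *XBP1* at 0.58 (SE 0.31, adjusted p = 0.54) by limma. *PPIC* and *DPM3* passed without each array in turn. *TRAPPC5* did not pass without CT HB 2 or 3 or IVV HB 1 or 2 (limma, adjusted p of at most 0.12). *KDELR1* did not pass without CT HB 2 or 3, PA HB 3 or any 1 IVV HB array (limma, adjusted p of at most 0.17).

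Enzymes and membrane proteins of the lysosome, the compartment in which endocytosed material is degraded, were higher in 4 cases and lower in 0 of 36 measured. The list median was 0.17, against -0.01 over all genes, and the unadjusted p was passed by 13. Differences in the list ran from -1.02, which did not pass, to 1.98, and 61.1% lay above 0 (47.6% of all genes). Of all genes 0.572% were higher and 0.0931% lower. *CTSK*, a cathepsin that cleaves collagen, had ratios of 0.39, 0.71 and 0.53 in CT HB, -0.59, -0.39 and 0.20 in PA HB and -1.70, -1.45 and -1.16 in IVV HB. The cathepsin and aminopeptidase *CTSH* had ratios of 0.09, 0.77 and 1.09 in CT HB, 0.62, 0.86 and 0.46 in PA HB and -1.64, -1.05 and -1.0 in IVV HB. Both cathepsins were above the reference on every CT HB array and below it on every IVV HB array, and the differences were 1.98 (SE 0.23, 3.95-fold, limma, adjusted p = 0.0033) for *CTSK* and 1.88 (SE 0.26, 3.68-fold, limma, adjusted p = 0.0064) for *CTSH*. PA HB lay between the groups for *CTSK* and within the range of CT HB for *CTSH*, with CT HB minus PA HB at 0.80 (limma, adjusted p = 0.037) and 0.01 (limma, adjusted p = 0.99). *PPT1*, a thioesterase that removes fatty acids from proteins, was at 2.04, 2.82 and 2.69 in CT HB, against 1.13, 1.45 and 1.28 in IVV HB, and the tetraspanin *CD63*, a membrane protein of late endosomes and exosomes, at 0.90, 1.25 and 1.78 in CT HB, against -0.31, 0.10 and 0.31 in IVV HB. These 2 genes differed by 1.23 (SE 0.23, 2.35-fold, limma, adjusted p = 0.042) and 1.27 (SE 0.25, 2.42-fold, limma, adjusted p = 0.044). *NPC2*, which carries cholesterol out of the lysosome, passed the adjusted p just under the fold threshold, at 2.36, 2.49 and 2.78 in CT HB, against 1.43, 1.67 and 1.53 in IVV HB, a difference of 1.00 with an adjusted p of 0.044 by limma. The sulfatase *GALNS* stood at 0.72 (SE 0.20, adjusted p = 0.15). Of 12 subunits of the proton pump that acidifies the lysosome 0 changed (median -0.01, unadjusted p passed by 3), with *ATP6V1E1* at 0.78 (SE 0.21, adjusted p = 0.14) and *ATP6V0C* at -0.64 (SE 0.27, adjusted p = 0.4) by limma. *CTSK* and *CTSH* passed without each array in turn. *PPT1* did not pass without CT HB 2 or 3 or any 1 IVV HB array (limma, adjusted p of at most 0.2). *CD63* did not pass without CT HB 2 or 3, PA HB 2 or 3 or any 1 IVV HB array (limma, adjusted p of at most 0.2).

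Autophagy delivers cytoplasm to the same compartment, and 3 of its 19 measured genes rose while 0 fell (list median 0.03, unadjusted p passed by 4, with 0.572% of all genes rising). They were *ULK1*, the kinase that starts the process, and *GABARAP* and *GABARAPL2*, ubiquitin-like proteins that are coupled to the autophagosome membrane. *GABARAP* had ratios of 0.35, 0.86 and 1.23 in CT HB, 0.43, 0.27 and -0.27 in PA HB and -1.24, -0.47 and -0.42 in IVV HB, a difference of 1.52 (SE 0.29, 2.87-fold, limma, adjusted p = 0.042). *GABARAPL2* was below the reference on 5 of the 6 arrays, at -0.21, -0.55 and 0.18 in CT HB, against -1.37, -1.14 and -1.34 in IVV HB, and differed by 1.09 (SE 0.21, 2.12-fold, limma, adjusted p = 0.042). *ULK1* was at -0.23, -0.18 and -0.05 in CT HB, -0.22, 0.08 and 0.48 in PA HB and -1.35, -1.06 and -1.27 in IVV HB, with CT HB and PA HB both above all IVV HB arrays, a difference of 1.08 (SE 0.20, 2.11-fold, limma, adjusted p = 0.036) for CT HB. *MAP1LC3B*, of the same protein family, stood at 0.59 (SE 0.19, adjusted p = 0.23) and the cargo receptor *SQSTM1* at 0.32 (SE 0.15, adjusted p = 0.49) by limma. Of the 3 probes of *MAP1LC3B* 1 passed both thresholds in the fit by probe, at 1.17 (limma, adjusted p = 0.022). Its other probes lay at -0.01 and 0.60. *ULK1* did not pass without any 1 CT HB array or any 1 IVV HB array (limma, adjusted p of at most 0.17). *GABARAP* did not pass without CT HB 2 or 3 or any 1 IVV HB array (limma, adjusted p of at most 0.2). *GABARAPL2* did not pass without CT HB 1 or 3, PA HB 3 or any 1 IVV HB array (limma, adjusted p of at most 0.2).

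Redox and iron genes rose in 3 of 34 cases and fell in 0 (list median 0.12, unadjusted p passed by 7, with 0.572% of all genes rising). *TXNIP*, which binds and inhibits thioredoxin and restrains glucose uptake, had ratios of 1.42, 2.05 and 2.13 in CT HB, 1.59, 0.90 and 0.69 in PA HB and -0.46, -0.26 and -0.02 in IVV HB. The CT HB arrays lay between 1.42 and 2.13, the IVV HB arrays under the reference, and the difference was 2.12 (SE 0.26, 4.33-fold, limma, adjusted p = 0.0034). *GSS*, the synthetase of the last step to glutathione, had ratios of 1.59, 1.93 and 2.10 in CT HB, 1.61, 1.06 and 1.06 in PA HB and -0.03, 0.29 and 0.23 in IVV HB, a difference of 1.71 (SE 0.21, 3.26-fold, limma, adjusted p = 0.0033). *FTL*, the light chain of the iron store ferritin, was at -0.49, -0.49 and -0.31 in CT HB, 0.53, 0.53 and 0.58 in PA HB and -2.23, -1.89 and -1.61 in IVV HB. The order of its groups was PA HB above CT HB above IVV HB, with no overlap, and CT HB differed from IVV HB by 1.48 (SE 0.18, 2.78-fold, limma, adjusted p = 0.0033) and from PA HB by -0.98 (SE 0.18, adjusted p = 0.0068). These 3 genes passed without each array in turn. *MGST3*, a microsomal glutathione transferase, stood at -0.81 (SE 0.20, adjusted p = 0.098), and the glutaredoxin *GLRX* at 1.15 (SE 0.49, adjusted p = 0.4) by limma.

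Of 27 cytokines, chemokines and ligands of the tumour necrosis factor family, 2 rose and 0 fell (list median -0.02, unadjusted p passed by 6). Over all genes 0.572% rose. *IL6*, interleukin 6, had ratios of 1.19, 0.73 and 1.23 in CT HB, 0.33, 0.23 and 0.06 in PA HB and -0.53, -1.21 and -1.43 in IVV HB. The 3 groups did not overlap, in the order CT HB, PA HB, IVV HB, and CT HB exceeded IVV HB by 2.10 (SE 0.24, 4.3-fold, limma, adjusted p = 0.0033) and PA HB by 0.84 (SE 0.24, adjusted p = 0.037). *CXCL16*, a chemokine that is also a scavenger receptor in its membrane-bound form, had ratios of 0.68, 1.07 and 0.95 in CT HB, -0.52, -0.12 and -1.73 in PA HB and -1.33, -0.50 and -1.09 in IVV HB. It was above the reference in CT HB alone, 1.87 (SE 0.36, 3.66-fold, limma, adjusted p = 0.042) above IVV HB and 1.69 (SE 0.36, adjusted p = 0.01) above PA HB. *CD70*, a ligand of the tumour necrosis factor family, did not overlap between CT HB and IVV HB, at 1.07, 1.94 and 1.31 in CT HB, against -0.55, 0.58 and -0.20 in IVV HB, but missed the adjusted p at 1.49 (SE 0.32, adjusted p = 0.06). *IL12B* stood at -1.19 (SE 0.32, adjusted p = 0.15), *MIF* at 0.99 (SE 0.32, adjusted p = 0.23) and *TNF* at 0.41 (SE 0.18, adjusted p = 0.43) by limma. Of 23 cytokine receptors and signal transducers 0 passed (median -0.04, unadjusted p passed by 0), and of 19 interferon-response genes 0 (median -0.07, unadjusted p passed by 2). *JAK1*, a kinase that transmits the interleukin 6 signal, was at 0.35 (SE 0.19, adjusted p = 0.55), and *NFKBIA*, an inhibitor of NF-kB, at -0.84 (SE 0.42, adjusted p = 0.5). *IL6* passed without each array in turn. *CXCL16* did not pass without any 1 CT HB array or IVV HB 1 or 3 (limma, adjusted p of at most 0.19).

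Annexins and S100 proteins bind calcium and associate with membranes, and of 18 measured 3 rose and 0 fell (median 0.30, unadjusted p passed by 6). Over all genes 0.572% rose. *ANXA2* had ratios of 0.69, 0.37 and 1.18 in CT HB, -0.37, -0.77 and -0.75 in PA HB and -1.09, -0.75 and -1.01 in IVV HB, a difference of 1.70 (SE 0.22, 3.24-fold, limma, adjusted p = 0.0044). PA HB lay closer to IVV HB than to CT HB for this gene, and CT HB minus PA HB was 1.38 (limma, adjusted p = 0.0053). Its partner *S100A10*, which forms a complex with it at the membrane, was at 1.41, 2.35 and 2.52 in CT HB, 0.96, 1.05 and 0.74 in PA HB and -0.57, 0.82 and 0.64 in IVV HB and differed by 1.80 (SE 0.36, 3.49-fold, limma, adjusted p = 0.046). *ANXA1*, an annexin known for limiting inflammation, was at 2.83, 1.58 and 2.69 in CT HB, 1.36, 1.82 and 1.24 in PA HB and 0.66, 0.03 and 0.91 in IVV HB, a difference of 1.83 (SE 0.33, 3.56-fold, limma, adjusted p = 0.036). *S100A11* differed more, by 2.60 (SE 0.56, adjusted p = 0.062), at 1.46, 2.91 and 2.92 in CT HB, against -1.66, 0.89 and 0.26 in IVV HB, where the arrays spread widely, and did not pass. *ANXA5* stood at 1.18 (SE 0.26, adjusted p = 0.066) and *ANXA7* at 0.66 (SE 0.25, adjusted p = 0.33) by limma. *ANXA2* passed without each array in turn. *S100A10* did not pass without CT HB 2 or 3, PA HB 2 or 3 or any 1 IVV HB array (limma, adjusted p of at most 0.24). *ANXA1* did not pass without CT HB 1 or 3 or any 1 IVV HB array (limma, adjusted p of at most 0.17).

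Changed genes of the cell surface, matrix and cytoskeleton included *LGALS3*, galectin 3, a lectin that binds glycans on the cell surface and also acts inside the cell. Its ratios were -0.40, -0.41 and 0.12 in CT HB, -1.43, -1.82 and -1.54 in PA HB and -2.89, -1.99 and -1.59 in IVV HB. CT HB was the highest group, by 1.92 (SE 0.30, 3.79-fold, limma, adjusted p = 0.013) over IVV HB and by 1.36 (SE 0.30, adjusted p = 0.012) over PA HB. *HAPLN3*, a link protein of hyaluronan and proteoglycans, was at 0.62, 1.73 and 1.73 in CT HB, against -0.86, 0.20 and -0.43 in IVV HB, a difference of 1.72 (SE 0.33, 3.3-fold, limma, adjusted p = 0.042). These were the 2 changed genes of 30 for extracellular matrix, integrins and proteases (median 0.12, unadjusted p passed by 6, with 0.572% of all genes rising). Among the 30 the laminin chain *LAMB1* stood at 0.90 (SE 0.20, adjusted p = 0.077) and fibronectin, *FN1*, at -0.86 (SE 0.23, adjusted p = 0.14). *SNX33*, a sorting nexin that remodels membranes in endocytosis, was at 2.91, 2.52 and 2.13 in CT HB, 2.25, 0.92 and 1.00 in PA HB and 0.65, 0.19 and 1.02 in IVV HB and rose by 1.90 (SE 0.35, 3.74-fold, limma, adjusted p = 0.037). *TPM4*, a tropomyosin that stabilizes actin filaments, was at 1.13, 2.08 and 2.14 in CT HB, against 0.15, 0.25 and 0.64 in IVV HB, a difference of 1.43 (SE 0.26, 2.7-fold, limma, adjusted p = 0.036). Of 20 genes of cell junctions 1 rose, *PERP* (list median -0.02, unadjusted p passed by 2, with 0.572% of all genes rising). On the same list *TJP3*, a scaffold of tight junctions, stood at 1.08 (SE 0.25, adjusted p = 0.08) by limma. *LGALS3* did not pass without CT HB 3 (limma, adjusted p of at most 0.091). *HAPLN3* did not pass without CT HB 2 or 3, PA HB 3 or IVV HB 1 or 3 (limma, adjusted p of at most 0.21). *SNX33* did not pass without any 1 CT HB array or any 1 IVV HB array (limma, adjusted p of at most 0.13). *TPM4* did not pass without CT HB 2 or 3, PA HB 3 or any 1 IVV HB array (limma, adjusted p of at most 0.17).

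Among 25 measured targets of the tumour suppressor p53, 2 rose and 0 fell (median 0.06, unadjusted p passed by 8, with 0.572% of all genes rising). *PERP*, a protein of desmosomes and a mediator of p53-dependent cell death, had ratios of 1.32, 1.32 and 1.34 in CT HB, 1.39, 0.89 and 1.18 in PA HB and -0.67, -0.30 and -0.04 in IVV HB. The CT HB arrays lay close together, from 1.32 to 1.34, and the difference from IVV HB was 1.66 (SE 0.20, 3.16-fold, limma, adjusted p = 0.0033). *RPS27L*, a p53-responsive relative of a ribosomal protein, was at 1.22, 1.04 and 1.5 in CT HB, 0.50, 0.33 and 0.03 in PA HB and -0.10, 0.37 and -0.12 in IVV HB. Here CT HB stood above both other groups, by 1.20 (SE 0.20, 2.3-fold, limma, adjusted p = 0.027) over IVV HB and by 0.96 (SE 0.20, adjusted p = 0.011) over PA HB. Members with the next smallest p, which did not pass, were the damage sensor *XPC* at 1.08 (SE 0.23, adjusted p = 0.06), *CCNG1* (cyclin G1) at 1.11 (SE 0.27, adjusted p = 0.099) and the cell cycle inhibitor *CDKN1A* at 0.80 (SE 0.23, adjusted p = 0.16) by limma, while the antiproliferative *TOB1* stood at -0.85 (SE 0.19, adjusted p = 0.072). In the fit by probe 1 of 2 probes of *CCNG1* passed both thresholds, at 1.49 (limma, adjusted p = 0.03), and the other lay at 0.735. For *TOB1* 1 of 2 probes passed, at -2.02 (limma, adjusted p = 0.014), and the other lay at 0.31. Of 21 apoptosis genes 0 passed both thresholds (median -0.09, unadjusted p passed by 1). *DFFA*, the inhibitor of the caspase-activated nuclease, passed the adjusted p alone, at 1.00, 0.82 and 0.85 in CT HB, against -0.09, -0.16 and 0.00 in IVV HB, a difference of 0.97 (SE 0.15, adjusted p = 0.013). Of its 2 probes 1 passed both thresholds in the fit by probe, at 1.58 (limma, adjusted p = 0.0058), and the other lay at 0.37. *PERP* passed without each array in turn. *RPS27L* did not pass without CT HB 1 or 3 or IVV HB 1 or 3 (limma, adjusted p of at most 0.17).

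Metabolic genes changed in both directions. *SLC3A1*, the heavy subunit of a transporter of cystine and basic amino acids, was the largest fall, at -1.06, -1.02 and -0.56 in CT HB, -0.82, -1.61 and -2.09 in PA HB and 0.83, 0.60 and 0.57 in IVV HB. Each CT HB and PA HB array was below the reference and each IVV HB array above it, and CT HB differed from IVV HB by -1.55 (SE 0.28, 2.93-fold lower, limma, adjusted p = 0.036). It was the 1 changed gene of 22 amino acid transporters (median -0.02, unadjusted p passed by 4, with 0.0931% of all genes falling). *ACAA2*, the mitochondrial thiolase that ends each round of fatty acid oxidation, was at -0.78, -0.58 and -0.55 in CT HB, against 0.91, 0.52 and 0.21 in IVV HB and fell by 1.18 (SE 0.23, limma, adjusted p = 0.044). *ECHDC1*, a decarboxylase that removes ethylmalonyl-CoA, a by-product of fatty acid synthesis, was higher, at 2.04, 2.57 and 2.13 in CT HB, 3.60, 3.30 and 3.69 in PA HB and 0.03, 0.98 and 0.91 in IVV HB. The 3 groups did not overlap, in the order PA HB, CT HB, IVV HB, with a difference from IVV HB of 1.61 (SE 0.26, 3.05-fold, limma, adjusted p = 0.019) and from PA HB of -1.28 (SE 0.26, adjusted p = 0.0087). *ACAA2* and *ECHDC1* were the changed members of a list of 26 named for fatty acid oxidation (median -0.10, unadjusted p passed by 6, with 0.572% of all genes rising and 0.0931% falling), although *ECHDC1* acts on a by-product of synthesis. In that list *CPT1A*, the gate for entry of fatty acids into mitochondria, stood at -0.77 (SE 0.27, adjusted p = 0.27) and *HADHA* at 0.79 (SE 0.28, adjusted p = 0.27). *AK3L1*, a mitochondrial adenylate kinase, was below the reference in both groups, at -2.37, -2.48 and -2.53 in CT HB, against -1.77, -1.24 and -0.80 in IVV HB, a difference of -1.19 (SE 0.24, 2.28-fold lower, limma, adjusted p = 0.046).

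*LDHD*, the mitochondrial dehydrogenase of D-lactate, was at 0.90, 1.49 and 1.42 in CT HB, against 0.09, 0.33 and -0.17 in IVV HB and rose by 1.19 (SE 0.21, 2.28-fold, limma, adjusted p = 0.036). It was the 1 changed gene of 23 for glycolysis and hypoxia (median -0.06, unadjusted p passed by 5, with 0.572% of all genes rising). The L-lactate dehydrogenase subunit *LDHA* just missed the adjusted p at 0.87 (SE 0.18, adjusted p = 0.054), and the other subunit, *LDHB*, stood at -0.82 (SE 0.27, adjusted p = 0.23). *GAPDH*, a glycolytic enzyme often used as a reference gene, was at -0.46, 0.83 and 0.84 in CT HB, against -0.98, -1.23 and -0.23 in IVV HB, a difference of 1.22 (SE 0.35, adjusted p = 0.18). *CRYL1*, a crystallin-related dehydrogenase of the uronate cycle, was at 0.94, 0.72 and 1.04 in CT HB, against -0.80, -0.42 and -0.41 in IVV HB and rose by 1.45 (SE 0.17, 2.72-fold, limma, adjusted p = 0.0033). *ARG1*, the arginase of the urea cycle, was at 2.08, 1.25 and 2.00 in CT HB, -0.45, 0.26 and 0.01 in PA HB and 0.80, 0.14 and 0.14 in IVV HB. CT HB was above both other groups, by 1.42 (SE 0.28, 2.68-fold, limma, adjusted p = 0.044) over IVV HB and by 1.84 (SE 0.28, adjusted p = 0.0048) over PA HB. Of 47 genes of oxidative phosphorylation 0 changed (median -0.24, unadjusted p passed by 8), with differences from -0.84 to 0.65, of 11 genes of cholesterol synthesis and uptake 0 (median -0.05, unadjusted p passed by 0), and of 15 steroid and prostaglandin enzymes 0 (median 0.02, unadjusted p passed by 3), although *HSD11B2*, which inactivates cortisol, did not overlap between the groups, at -3.01, -3.23 and -3.98 in CT HB, against -5.58, -4.19 and -4.71 in IVV HB, a difference of 1.42 (SE 0.36, adjusted p = 0.11) by limma. *CRYL1* passed without each array in turn. *SLC3A1* did not pass without any 1 CT HB array or any 1 IVV HB array (limma, adjusted p of at most 0.13). *ACAA2* did not pass without any 1 CT HB array, PA HB 2 or any 1 IVV HB array (limma, adjusted p of at most 0.17). *ECHDC1* did not pass without CT HB 2 or 3 (limma, adjusted p of at most 0.088). *AK3L1* did not pass without any 1 CT HB array, PA HB 3 or IVV HB 2 or 3 (limma, adjusted p of at most 0.21). *LDHD* did not pass without CT HB 2 or 3 or IVV HB 1 or 3 (limma, adjusted p of at most 0.17). *ARG1* did not pass without CT HB 1 or 3, PA HB 3 or IVV HB 2 or 3 (limma, adjusted p of at most 0.21).

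Lists of RNA processing and protein synthesis held 1 changed gene each or 0, where 0.572% of all genes rose and 0.0931% fell. *ABCE1*, the ATPase that splits ribosomes for recycling, was at -0.72, -0.81 and -0.85 in CT HB, against 0.14, 0.27 and 0.69 in IVV HB and differed by -1.15 (SE 0.20, 2.23-fold lower, limma, adjusted p = 0.026). It was the 1 changed gene of 37 translation factors (median -0.02, unadjusted p passed by 10), and *PA2G4*, a regulator of ribosome synthesis and translation, passed the adjusted p without the fold threshold at -0.78 (SE 0.15, adjusted p = 0.046). *HNRNPAB*, an RNA-binding protein of nuclear ribonucleoproteins, was at -0.02, 0.17 and 0.18 in CT HB, against 1.29, 0.78 and 1.42 in IVV HB, a difference of -1.05 (SE 0.21, 2.07-fold lower, limma, adjusted p = 0.046), and was the 1 changed gene of 40 splicing factors and hnRNP proteins (median -0.22, unadjusted p passed by 11), of which 27.5% lay above 0. Its relatives *HNRNPD* and *HNRNPA2B1* stood at -0.63 and -0.64 without passing (limma, adjusted p = 0.14 for each). *RPLP1*, a stalk protein of the ribosome, was at 0.70, 0.21 and 0.86 in CT HB, against -0.56, -0.47 and -0.40 in IVV HB and rose by 1.07 (SE 0.21, 2.1-fold, limma, adjusted p = 0.046). Of 44 cytosolic ribosomal protein genes it alone passed (median 0.27, unadjusted p passed by 8), while 81.8% lay above 0 (47.6% of all genes). Of 49 mitochondrial ribosomal proteins 0 changed (median -0.15, unadjusted p passed by 8). *ZNRD1*, a small subunit of RNA polymerase I, was at 0.74, 0.79 and 0.94 in CT HB, against -0.18, -0.39 and -0.09 in IVV HB, a difference of 1.04 (SE 0.20, 2.06-fold, limma, adjusted p = 0.042). *MLLT3* (AF9), a reader of acylated histones in the super elongation complex, was at 1.04, 0.52 and 0.63 in CT HB, -0.81, -0.56 and -0.73 in PA HB and -0.79, -0.95 and -0.51 in IVV HB. It was above the reference in CT HB alone, by 1.48 (SE 0.19, 2.8-fold, limma, adjusted p = 0.0044) over IVV HB and by 1.43 (SE 0.19, adjusted p = 0.0048) over PA HB. *MLLT3* passed without each array in turn. *ABCE1* did not pass without any 1 CT HB array or IVV HB 2 or 3 (limma, adjusted p of at most 0.15). *HNRNPAB* did not pass without any 1 CT HB array, PA HB 3 or IVV HB 1 or 3 (limma, adjusted p of at most 0.18). *RPLP1* did not pass without CT HB 1 or 3 or any 1 IVV HB array (limma, adjusted p of at most 0.24). *ZNRD1* did not pass without any 1 CT HB array, PA HB 3 or any 1 IVV HB array (limma, adjusted p of at most 0.21).

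**Figure D2:**
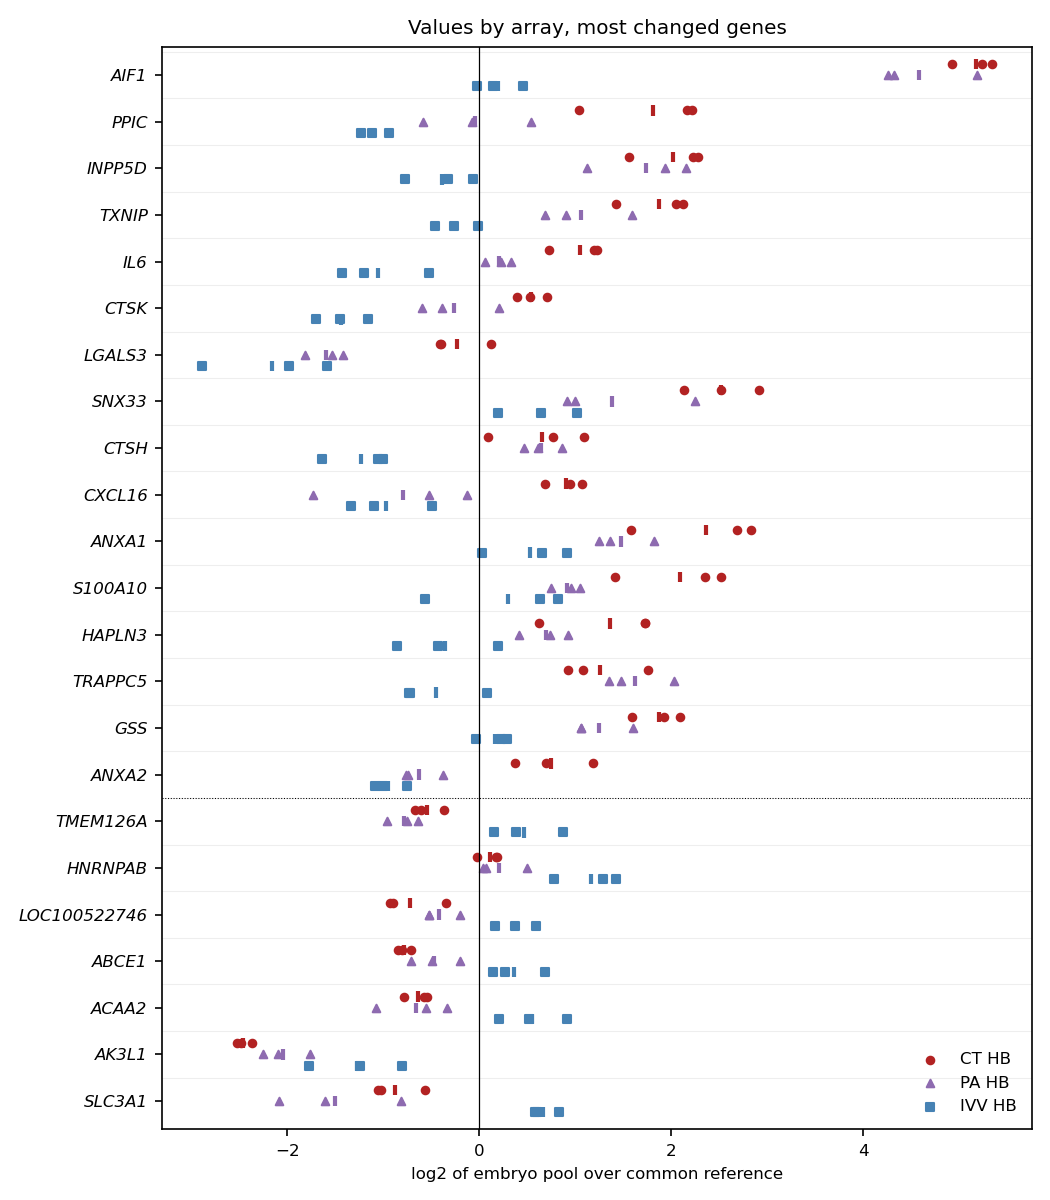
Log2 ratio of each embryo pool over the common reference (x axis) for the 16 largest rises and all 7 falls among the changed genes (y axis), with 1 point per array and a short line at each group mean, 3 arrays a group (CT HB circles, PA HB triangles, IVV HB squares). CT HB and IVV HB do not overlap in any gene shown, and PA HB lies with CT HB for some genes (*CTSH*) and near IVV HB for others (*CXCL16*).

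The lists of DNA methylation and histone modifiers, imprinted genes and sex chromosome markers held no gene whose mean over its probes passed. They name 77, 36 and 17 genes, of which only the numbers given below were measured. The histone reader *MLLT3*, which changed, is on none of these lists. Of 46 DNA methylation and histone modifiers 0 changed (median -0.04, unadjusted p passed by 7), with differences from -0.90 to 1.17. *KDM6A*, an X-linked demethylase of histone H3, had the smallest p among them, at 0.27, 0.66 and 0.77 in CT HB, against -1.14, -0.70 and 0.04 in IVV HB, a difference of 1.17 (SE 0.31, adjusted p = 0.14). The methyl-binding protein *MBD3* stood at -0.90 (SE 0.27, adjusted p = 0.2) and the Polycomb subunit *EED* at -0.59 (SE 0.18, adjusted p = 0.2) by limma. Of 14 imprinted genes, which are expressed from 1 parental copy, 0 changed (median -0.07, unadjusted p passed by 2). The maternally expressed *MEG3* was at -1.04, -0.67 and -0.59 in CT HB, 0.17, 0.19 and 0.02 in PA HB and -0.39, -0.39 and 0.19 in IVV HB, which for CT HB was -0.57 (SE 0.20, adjusted p = 0.28) relative to IVV HB by limma. *DIRAS3* stood at -0.46 (SE 0.16, adjusted p = 0.26) and *GNAS* at 0.35 (SE 0.19, adjusted p = 0.55). Of the 4 probes of *GNAS* 1 passed both thresholds in the fit by probe, at 1.96 (limma, adjusted p = 0.037). Its other probes lay between -0.41 and 0.02. Of 7 markers of the sex chromosomes 0 changed (median 0.04, unadjusted p passed by 2), and the X-linked *USP9X* was at -0.85, -0.27 and -0.63 in CT HB, against -1.32, -1.38 and -1.25 in IVV HB, a difference of 0.73 (SE 0.19, adjusted p = 0.13). The sex of the embryos in a pool is not given in the sources used here.

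Chaperones, the proteasome, the cell cycle and signalling pathways held no changed gene either. Of 36 cytosolic chaperones 0 changed (median -0.24, unadjusted p passed by 9), with *HSP90AA1* at -0.69, -0.14 and -0.13 in CT HB, against 0.70, 0.41 and 1.08 in IVV HB, a difference of -1.05 (SE 0.22, adjusted p = 0.054) that missed the adjusted p threshold by limma. Of its 2 probes 1 passed both thresholds in the fit by probe, at -1.50 (limma, adjusted p = 0.044), and the other lay at -0.60. Of 33 proteasome genes 0 changed (median -0.14, unadjusted p passed by 3), of 27 genes of DNA replication 0 (median -0.16, unadjusted p passed by 7) and of 40 genes of mitosis 0 (median -0.01, unadjusted p passed by 3). Of 48 genes of the WNT, FGF and TGF-beta pathways 0 changed (median 0.07, unadjusted p passed by 7), and of 8 channels and aquaporins of the blastocoel 0 (median -0.04, unadjusted p passed by 2). *KLF10*, at 0.70 (SE 0.21, adjusted p = 0.2), and *BMP4*, at 0.69 (SE 0.22, adjusted p = 0.23), had among the smallest p in the signalling list without passing limma's test. Of the 2 probes of *KLF10* 1 passed both thresholds in the fit by probe, at 1.27 (limma, adjusted p = 0.027), and the other lay at 0.12. A median away from 0 in these lists is a description of their members and was not tested.

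**Figure D3:**
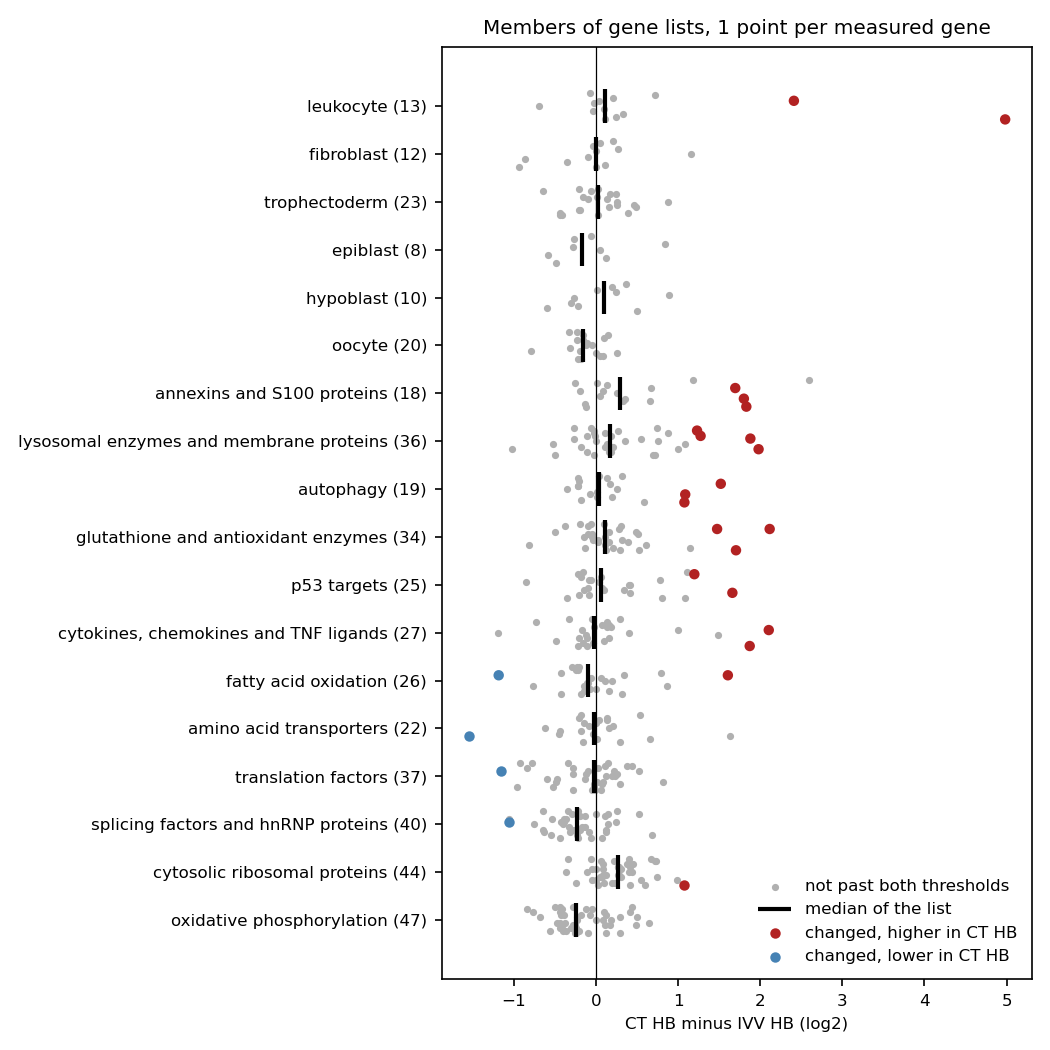
Difference of CT HB minus IVV HB on the log2 scale (x axis) for every measured member of 18 gene lists (y axis, number measured in parentheses), with changed genes in red (higher in CT HB) or blue (lower in CT HB), other genes in grey, and the list median as a black line. Changed genes are few in every list, the lineage lists from trophectoderm to oocyte hold 0, and 2 leukocyte genes, *AIF1* at 4.98 and *INPP5D* at 2.41, stand apart from the other 11.

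Of 14 genes that the study examined by quantitative PCR, 11 were measured here, while *NANOG*, *HES1* and *ANXA8* had no named probe. Of these 11 genes 0 passed both thresholds in CT HB against IVV HB (median 0.35, unadjusted p passed by 4). *LGMN*, the lysosomal protease legumain, was at 1.27, 1.04 and 1.46 in CT HB, 1.19, 1.18 and 0.39 in PA HB and 0.65, 0.39 and 0.10 in IVV HB, with no overlap between CT HB and IVV HB and a difference of 0.88 (SE 0.24, adjusted p = 0.15). *SLC36A2*, a transporter of small amino acids, was at -0.43, 2.48 and 1.32 in CT HB, 3.59, 3.77 and 3.49 in PA HB and -0.70, -0.44 and -0.37 in IVV HB. CT HB 1 lay near the IVV HB arrays and CT HB 2 and 3 well above them, so that the mean difference of 1.63 (SE 0.53, adjusted p = 0.23) did not pass, whereas CT HB differed from PA HB by -2.49 (SE 0.53, adjusted p = 0.01). The Notch genes *NCSTN* and *PSEN2*, subunits of the protease that releases the Notch intracellular domain, were at 1.15 (SE 0.49, adjusted p = 0.4) and -0.55 (SE 0.15, adjusted p = 0.16), the ligand *JAG1* at 0.35 (SE 0.20, adjusted p = 0.58), and the target *HEY2* at 0.07 (SE 0.25, adjusted p = 0.95) by limma. Of the 2 probes of *PSEN2* 1 passed both thresholds in the fit by probe, at -1.10 (limma, adjusted p = 0.026), and the other lay at 0.00. *HEY2* had ratios of -0.06, 0.01 and -0.20 in CT HB, 1.22, 1.19 and 1.20 in PA HB and -0.71, 0.45 and -0.22 in IVV HB, high in PA HB alone. Of 19 Notch pathway genes 0 changed (median 0.07, unadjusted p passed by 5). The keratins *KRT8* and *KRT18*, filaments of the trophectoderm, stood at 0.48 and -0.21, and *DPP4*, *GATA2* and *KCTD3* at 0.39, -0.15 and 0.08 (limma, adjusted p from 0.54 to 0.93 over these 5). The precursor miRNAs that the study named were not analysed here. Of 25 other annotated precursor miRNA genes 0 changed, with differences from -0.33 to 0.29 (0 at an unadjusted p of at most 0.05 by limma).

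Further changed genes belong to no list. *CCDC50*, a ubiquitin-binding coiled-coil protein, was at 1.63, 1.38 and 1.5 in CT HB, against -0.18, -0.26 and 0.33 in IVV HB, a difference of 1.54 (SE 0.19, 2.9-fold, limma, adjusted p = 0.0033). *GPR143*, a receptor of pigment granules, was at 1.69, 1.38 and 1.60 in CT HB, 0.09, 0.83 and 0.50 in PA HB and 0.22, 0.02 and 0.02 in IVV HB, higher in CT HB than in IVV HB by 1.47 (SE 0.20, 2.77-fold, limma, adjusted p = 0.0061) and than in PA HB by 1.08 (SE 0.20, adjusted p = 0.007). *P2RX4*, an ATP-gated cation channel, was at 0.56, 0.66 and 0.69 in CT HB, 1.35, 1.04 and 1.18 in PA HB and -1.26, -0.69 and -0.54 in IVV HB. The 3 groups did not overlap there, with PA HB the highest, and CT HB differed from IVV HB by 1.46 (SE 0.20, 2.75-fold, limma, adjusted p = 0.0061). *FKBP1B*, a binding protein of the calcium channels called ryanodine receptors, was at 1.16, 0.46 and 0.72 in CT HB, against -0.65, -0.50 and -0.62 in IVV HB and rose by 1.37 (SE 0.19, 2.59-fold, limma, adjusted p = 0.0063). *MORN2* was at -0.06, -0.32 and 0.11 in CT HB, against -1.51, -1.62 and -1.36 in IVV HB and rose by 1.40 (SE 0.18, 2.64-fold, limma, adjusted p = 0.0044). *EPB41L4A*, a member of the band 4.1 family, rose by 1.39 (SE 0.23, 2.61-fold, limma, adjusted p = 0.023). The elastase gene *CELA1*, at 0.90, 1.60 and 1.41 in CT HB, against -0.33, 0.10 and 0.31 in IVV HB, rose by 1.28 (SE 0.26, 2.42-fold, limma, adjusted p = 0.046). *WFDC1*, whose protein has a whey acidic protein domain, was at 0.30, -0.17 and 0.22 in CT HB, against -1.60, -0.95 and -0.70 in IVV HB, and rose by 1.20 (SE 0.24, 2.3-fold, limma, adjusted p = 0.046). *ITM2B*, a membrane protein of the secretory route, rose by 1.12 (SE 0.20, 2.18-fold, limma, adjusted p = 0.036). *TMEM126A*, a protein of the inner mitochondrial membrane, was lower, at -0.67, -0.61 and -0.37 in CT HB, against 0.87, 0.16 and 0.38 in IVV HB, a difference of -1.02 (SE 0.20, 2.02-fold lower, limma, adjusted p = 0.046). The seventh lower gene carries a locus identifier in place of a name. *CCDC50*, *GPR143*, *P2RX4*, *FKBP1B* and *MORN2* passed without each array in turn. *EPB41L4A* did not pass without CT HB 2 or 3 or IVV HB 1 or 3 (limma, adjusted p of at most 0.15). *CELA1* did not pass without CT HB 2 or 3, PA HB 2 or any 1 IVV HB array (limma, adjusted p of at most 0.21). *WFDC1* did not pass without any 1 CT HB array, PA HB 2 or 3 or any 1 IVV HB array (limma, adjusted p of at most 0.21). *ITM2B* did not pass without any 1 CT HB array, PA HB 3 or any 1 IVV HB array (limma, adjusted p of at most 0.17). *TMEM126A* did not pass without any 1 CT HB array, PA HB 2 or 3 or IVV HB 1 or 3 (limma, adjusted p of at most 0.17).

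The PA HB arrays, which share activation and culture with CT HB but not the donor nucleus, gave a second set of values for these genes. Both groups are set against the same 3 IVV HB arrays, so that their differences from IVV HB are not independent of each other, and CT HB was tested against PA HB directly. Of the 50 changed genes 21 also changed in PA HB against IVV HB in the same direction, and 0 in the opposite direction. The share of all genes that changed in PA HB against IVV HB is not given here. The 21 therefore cannot be weighed against it and are no measure of likeness between CT HB and PA HB. The direct test called 584 of 7518 genes (7.77%), and 10 of the 50 changed genes were among them. CT HB was higher than PA HB in 9 of the 10, *PPIC*, *LGALS3*, *CXCL16*, *ANXA2*, *MLLT3*, *GPR143*, *ARG1*, *EPB41L4A* and *KDELR1*, and lower in *ECHDC1*. The 50 genes were picked with these same CT HB arrays, and 43 of them for being higher on them. Their share among the calls and its direction are thus tilted towards CT HB being higher, here and below. For *EPB41L4A* the ratios were 0.56, 0.91 and 1.09 in CT HB, 0.20, -0.14 and -0.61 in PA HB and -0.75, -0.37 and -0.48 in IVV HB, a difference from PA HB of 1.03 (SE 0.23, adjusted p = 0.013) by limma. A further 9 genes were higher in CT HB than in PA HB and 1 was lower with an adjusted p that passed and a fold under 2. The lower one was *FTL*, for which CT HB fell below PA HB by 0.98 on the log2 scale. The higher ones were *GABARAPL2*, *RPS27L*, *FKBP1B*, *ITM2B*, *DPM3*, *IL6*, *LDHD*, *CTSK* and *CCDC50*, at 0.68 to 1.00. *ITM2B* had ratios of 0.84, 0.85 and 1.29 in CT HB, 0.34, -0.10 and 0.12 in PA HB and -0.42, -0.04 and 0.08 in IVV HB. For *CTSH* the interval of the difference between CT HB and PA HB was -0.57 to 0.58, and for *PERP* -0.26 to 0.61 (95%, limma). The test did not separate CT HB from PA HB in those genes, which does not show that the groups were equal.

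Of the 50 changed genes 4 were measured by several probes. All 3 probes of *ANXA2* passed on their own, at 1.16 to 2.04, as did both of *CCDC50* at 1.35 and 1.72. For *EPB41L4A* 1 probe passed at 2.00 and the other lay at 0.77, and for *HNRNPAB* the probes lay at -1.08 and -1.02 with 0 of 2 passing. The other 46 genes rest on 1 probe each. Some of these did not pass in the fit by probe, which corrects over all 23971 probes. They were *KDELR1*, *ARG1*, *CD63*, *S100A10*, *GABARAPL2*, *ZNRD1*, *ACAA2*, *CELA1*, *AK3L1*, *WFDC1*, *RPLP1* and *TMEM126A*, at adjusted p from 0.052 to 0.066 (limma). Conversely, 24 genes had 1 probe that passed while their mean did not, 16 with the probe higher and 8 with it lower, and in 9 of these the probes pointed in opposite directions. These genes were chosen after their values were seen. *TOB1* had probes at -2.02 and 0.31, *GNAS* had 1 of 4 at 1.96 and the others between -0.41 and 0.02, and *CD86* had 1 of 5 at 1.74 and the lowest at -0.60. Whether such probes measure different transcripts of a gene or different genes was not tested, since probe sequences were not used here.

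**Figure D4:**
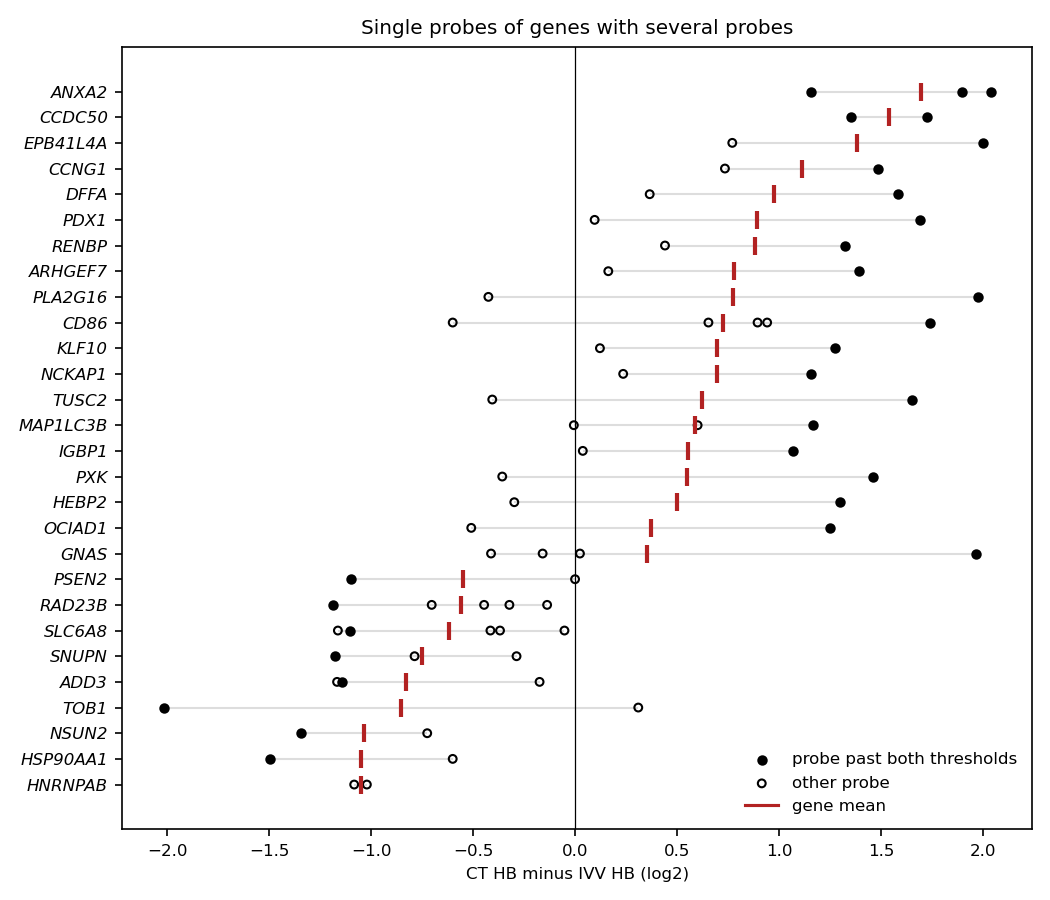
Difference of CT HB minus IVV HB on the log2 scale (x axis) for every probe of 28 genes with several probes (y axis), 4 that changed and 24 with 1 probe past both thresholds and a mean that did not pass, with filled points for probes past both thresholds and a red line at the gene mean. The 3 probes of *ANXA2* and both of *CCDC50* lie on 1 side, whereas those of *TOB1*, *GNAS* and *CD86* lie on both sides of 0.

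Fitted by probe, 123 of 23971 probes changed (0.513%), 93 higher and 30 lower in CT HB. The 64 named ones were higher in 53 cases (82.8%), and the 59 without a gene symbol in 40 (67.8%). Probes without a symbol are 13627 of the array, of which 0.433% changed, against 0.619% of the 10344 named probes.

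The number of changed genes depended on single arrays. Leaving out CT HB 3 left 20 changed genes, IVV HB 3 left 23 and IVV HB 1 left 25, whereas without PA HB 1, which enters through the shared spread alone, 74 genes changed. The lower genes were the less stable, with 0 left without CT HB 1, without CT HB 3 or without IVV HB 3. In all, 19 genes kept their call with each array left out in turn and under every other setting, and all were higher in CT HB. They were *AIF1*, *PPIC*, *INPP5D*, *TXNIP*, *IL6*, *CTSK*, *CTSH*, *GSS*, *ANXA2*, *PERP*, *DPM3*, *CCDC50*, *MLLT3*, *FTL*, *GPR143*, *P2RX4*, *CRYL1*, *MORN2* and *FKBP1B*.

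**Figure D5:**
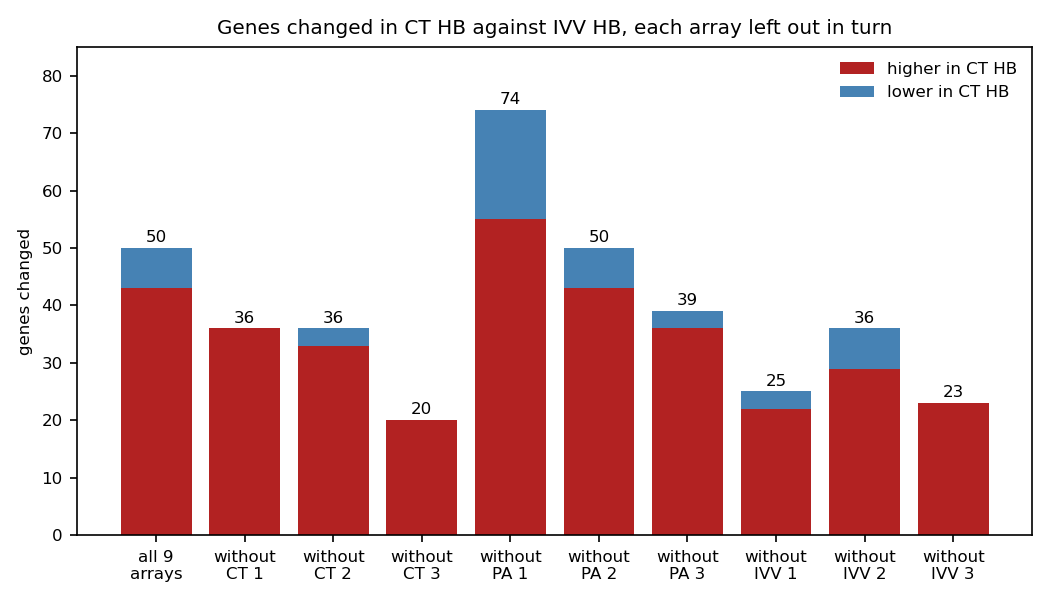
Number of genes changed in CT HB against IVV HB (y axis, from 0) with all 9 arrays and with each array left out in turn (x axis), split into genes higher (red) and lower (blue) in CT HB, total above each bar. Totals run from 20 without CT HB 3 to 74 without PA HB 1, and most genes are higher in CT HB in every bar.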

How the data were processed

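In the deposited table each array has 1 column of log2 values, the Cy5 signal of an embryo pool over the Cy3 signal of a common reference. RNA was amplified linearly with T7 RNA polymerase before labelling, which can distort the level of some transcripts. The authors corrected spots for background and normalized each array by loess over all its spots, and no scaling between arrays is stated. The rule of the authors for positive spots was not applied, and without intensities dim probes were not set aside, and ratios of dim spots can be compressed or noisy. The direction was taken from the dyes. Oocyte transcripts, which the reference contains, lay below 0 in the median on all arrays.

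Of 23971 probes, with 0 missing values, 10344 carried 1 gene symbol (43.2%), 0 several and 13627 none. For 2748 named probes an accession was given, and the Sscrofa11.1 table of RefSeq, consulted for names alone, held 1567 of them. It renamed 65 probes, while 7 kept their annotated symbol. The mean over the probes of each symbol yielded 7518 genes, 5712 with 1 probe and 1806 with 2 to 10. No sequences or genome positions were used.

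A model of the 3 group means over all 9 arrays was made in R 4.3.3 by lmFit and eBayes of limma 3.58.1, with 6 residual degrees of freedom, 5.46 prior degrees of freedom and a prior SD of 0.253. Two-sided p-values were corrected with the Benjamini-Hochberg method across all genes, separately for each comparison. As in the methods of the study, a gene counted as changed if the groups were at least 2-fold apart with an adjusted p no higher than 0.05. On simulated data for the same 7518 genes, the fit of CT HB against IVV HB recovered 98%, 96%, 100% and 100% of 50 genes each at log2 changes of 1.5, 2, 3 and 4, with 3 false calls. The simulated noise was normal and independent for each array, with the SD of each gene from the fit. It held no effects shared over an array, and changes between 2-fold and a log2 change of 1.5 were not simulated. The recovery on the real arrays is therefore not known.

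Lists were described by counts and medians, beside those over all genes, and were not tested as sets. The members and lists were chosen with earlier results of these data known. By rule, changed genes with a symbol may be named, values by array were given for the 12 largest rises and the 8 largest falls (7 were found) and for changed members of a list (those of the other changed genes were added after they were seen), the genes of the study's quantitative PCR were named where measured, and up to 4 further members of each list with the smallest p were given, beside lineage and defining markers added for orientation.

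The common profile comprises probes that correlated at 0.95 or more over the 9 arrays with the mean of 4 seed genes and spanned at least 1.5 on the log2 scale. Each array was left out in turn. Other alternatives were the CT HB and IVV HB arrays without PA HB, blocking on the replicate number, arrays centred on their median, normalized by quantile or put on 1 scale, probes combined by median, genes of low variance left out, a robust prior, array weights, the common profile left out, and other thresholds. Applying them to the probe fit and to CT HB against PA HB was chosen after seeing the data.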

Additional observations from a re-analysis of the deposited data

How the results depend on the processing

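Over 220 single genes, the changed genes and the list members followed singly, 0 of 4161 alternative values turned a call to the other direction, 11 values of genes that did not pass took the other sign, 186 no longer passed and 74 passed anew. In place of 50 changed genes (43 higher, 7 lower), quantile normalization gave 130 (99 and 31), scale normalization 103 (76 and 27, or 73.8% higher against 86%), array weights 116 (82 and 34), leaving out the least variable genes 77 (14 lower), and an adjusted p of at most 0.1 gave 83 (69 and 14). The 6 arrays alone gave 67 with 17 lower, and a fold of 1.5 or none gave 11 lower. Leaving out each array in turn gave 20 to 74 changed genes, 20 to 55 higher and 0 to 19 lower. By probe, 123 changed, against 361 with array weights, 392 after quantile and 276 after scale normalization, and 16 to 180 without single arrays. CT HB against PA HB gave 584 genes, 370 after quantile normalization and 324 to 792 without single arrays. The cause of these shifts was not tested.

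With the replicate number as a block 56 genes changed (47 and 9), of which 41 are among the 50. *ARG1*, *RPLP1*, *AK3L1*, *GABARAPL2*, *HNRNPAB*, *ACAA2*, *TMEM126A*, *ZNRD1* and *WFDC1* then did not pass. Same-numbered CT HB and IVV HB arrays deviated from their group means with correlations of 0.25, 0.31 and -0.01, and differently numbered ones with -0.42 to 0.21. These few values do not decide whether the numbers pair the samples. The main fit treated the arrays as unpaired. The 6 arrays alone lost *HAPLN3*, *S100A10*, *TMEM126A* and *WFDC1*, centring lost *RPLP1*, quantile and scale normalization lost *AK3L1*, and array weights lost *TMEM126A*. The small list medians of V-ATPase subunits, cell junctions, mitosis and oocyte genes changed sign under quantile or scale normalization (0.03, 0.01, 0.02 and 0.01 against -0.01, -0.02, -0.01 and -0.15), while no other list median changed sign under centring, quantile or scale normalization.

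The number of arrays, 3 a group, limits the precision, and which spots lay near background is not known here.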

Other observations

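Among genes at least 2-fold apart, 89 did not pass the adjusted p, 50 higher and 39 lower in CT HB, and 5 of them carry a probe of the common profile. Those named here were chosen after their values were seen.

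*BLNK*, an adaptor of B cell receptor signalling, had ratios of 1.14, 2.49 and 3.11 in CT HB, against -1.19, 0.21 and 0.62 in IVV HB, a difference of 2.37 (SE 0.58) with an adjusted p of 0.099 by limma. *GPX6*, a glutathione peroxidase, stood below the reference on 5 of these 6 arrays, at -1.62, -2.26 and 0.17 in CT HB, against -4.34, -3.20 and -3.71 in IVV HB, and differed by 2.51 (SE 0.52, limma, adjusted p = 0.054). In both genes the groups did not overlap and the CT HB arrays spread widely.

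*PNPLA2*, the lipase that begins the breakdown of stored triglyceride, had ratios of 0.66, 1.34 and 0.64 in CT HB, against -0.79, -0.49 and -0.24 in IVV HB, a difference of 1.38 (SE 0.29, limma, adjusted p = 0.06). *CAPG*, which caps actin filaments, was at 1.53, 1.29 and 1.49 in CT HB, against 0.35, -0.22 and 0.81 in IVV HB, a difference of 1.12 (SE 0.25, limma, adjusted p = 0.072). On the lower side *PAPSS2*, which makes the donor of sulfate groups, was at -2.30, -1.94 and -1.56 in CT HB, against -1.11, -0.38 and 0.16 in IVV HB, a difference of -1.49 (SE 0.41, limma, adjusted p = 0.15). None of these 3 genes overlapped between the groups, as was true of 19.2% of all genes.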
